A study of Mus musculus with 6 samples.

Results

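Ctla2a and Ctla2b are a pair of similar mouse genes whose small proteins resemble the propeptide of cathepsin L and inhibit cysteine proteases of that kind. They were picked out by gene name, 2 of 41095 genes in the deposited table, because both stood among the larger rises with acetate in these same libraries. Their difference between the groups is therefore described below without a test. The table came from wild-type (WT) mouse CD8+ T cells, the killer lymphocytes of infections and tumours, isolated from spleen by positive selection and cultured for 72 h. Antibodies that set off the T cell receptor and the costimulator CD28 had been put on the plates for 24 h (5 µg/mL anti-CD3, 2 µg/mL anti-CD28), and the medium held IL-2 at 30 U/mL. The control group was 3 libraries labelled as having no treatment. The acetate group was 3 libraries of cells kept for 48 h in acetate, a short-chain fatty acid, at what is taken to be 5 mmol/L, since the labels write the unit unusually. All 6 libraries share the selection, the coating antibodies and IL-2. The labels do not give the age of the mice, nor whether replicate libraries stem from different animals or dishes, so errors and p-values measure the spread between these libraries, which may be technical. The design text describes the groups as before against after treatment, so if the groups were taken at different times, time in culture and acetate cannot be told apart.

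Cysteine cathepsins are made with a propeptide that folds over the active site and blocks it until it is cut off in the lysosome. CTLA-2 alpha and beta, the products of Ctla2a and Ctla2b, look like such a propeptide without an enzyme attached, and CTLA-2 alpha is known to inhibit cathepsin L. The genes were found in activated mouse T cells as cytotoxic T lymphocyte antigens, beside the genes now called Gzma, Gzmb and Ctla4. They lie in a cluster of cathepsin L relatives that are known for their expression in the placenta. Cathepsins are in turn held in check by other inhibitors, the cystatins and some serpins.

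The start regions of both genes are shown because the genes rose together and resemble each other. Each sequence runs 5′ to 3′ on the minus strand, from 250 bases before to 50 bases after the start site in RefSeq build GRCm38.p6, and capitals mark an AP-1 site and the core of a cyclic AMP response element. For Ctla2a, the 5′-most of its listed start sites was used.
Ctla2a, chr13:60936576-60936875: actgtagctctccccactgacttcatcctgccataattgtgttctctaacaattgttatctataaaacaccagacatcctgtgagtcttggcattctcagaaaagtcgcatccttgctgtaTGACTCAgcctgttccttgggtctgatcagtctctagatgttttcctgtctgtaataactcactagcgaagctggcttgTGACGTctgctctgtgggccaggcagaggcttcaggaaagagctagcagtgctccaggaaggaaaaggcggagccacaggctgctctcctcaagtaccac
Ctla2b, chr13:60897398-60897697: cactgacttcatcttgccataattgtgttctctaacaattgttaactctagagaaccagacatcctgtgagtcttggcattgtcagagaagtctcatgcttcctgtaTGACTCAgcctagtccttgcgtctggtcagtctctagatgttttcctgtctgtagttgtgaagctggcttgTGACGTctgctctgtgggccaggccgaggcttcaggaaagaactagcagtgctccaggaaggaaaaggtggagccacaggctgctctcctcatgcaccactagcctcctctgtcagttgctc

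The best local alignment of the start regions was 89.2% identical over 286 columns, with 23 mismatches and 8 gap columns. Of 8 motifs searched on both strands, TGANTCA, bound by AP-1 factors, matched once in each gene, and TGACGT, the core of a cyclic AMP response element, also matched once in each. They were found in 7.81% and 7.51% of 32851 listed start regions of the same length. GGAAAA, a core of NFAT sites, matched at 2 positions in each gene and was found in 23.4% of start regions. TATAAA matched once in Ctla2a, 0 times in Ctla2b and in 13.6% of start regions. TGTGGT of RUNX sites (16.8% of start regions), CACGTG (7.15%), CCAAT (37.4%) and TGATGNAAT of amino acid response elements (0.965%) matched in neither gene. A match of letters is a description and does not show that a factor binds there.

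Both genes were higher in every acetate library than in any control library. In FPKM (reads divided by gene length in kilobases and by the library's reads), Ctla2a stood at 34.5, 33.2 and 31.4 in control replicates 1 to 3 and at 62.6, 73.1 and 68.6 in acetate replicates 1 to 3. Ctla2b stood at 7.69, 8.04 and 7.22 FPKM in the control and at 18.9, 20.1 and 21.7 FPKM in the acetate libraries. For each gene the groups did not overlap. The lowest acetate value was 1.82 times the highest control value for Ctla2a and 2.35 times for Ctla2b. In all genes tested, 28.8% had all 3 acetate values above all 3 control values, and nothing is read from this for genes chosen by the same contrast.

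**Figure D1:**
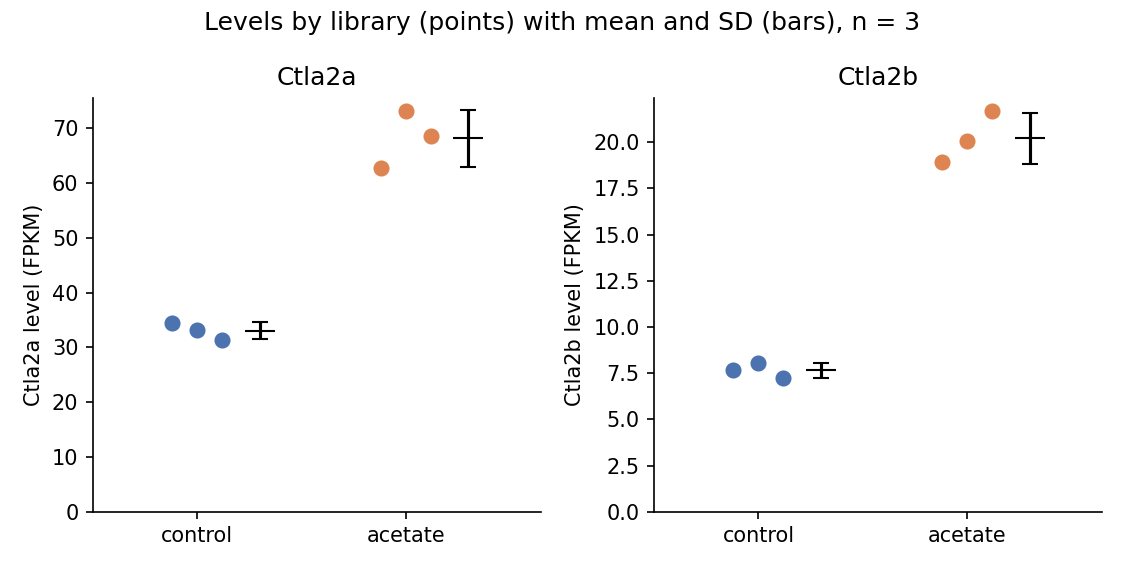
Levels of Ctla2a (left) and Ctla2b (right) in FPKM, in 3 control and 3 acetate libraries. Points are libraries, and bars beside them give the mean and SD (n = 3); every acetate point lies above every control point.

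Ctla2a averaged 33.0 ± 1.56 FPKM in control and 68.1 ± 5.26 FPKM in acetate libraries (SD, n = 3 per group), a ratio of means of 2.06. Ctla2b had a ratio of means of 2.64. In absolute terms Ctla2a gained more, with a difference between means of 35.1 FPKM against 12.6 FPKM for Ctla2b. The spread within a group was small for both. The SD was 4.72% of the mean in control and 7.72% in acetate libraries for Ctla2a, and 5.37% and 6.79% for Ctla2b.

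Among the 10867 genes that averaged 1 FPKM or more, Ctla2a moved from the 80.1 to 81.9 percentile of level in control libraries to the 90.6 to 91.8 percentile in acetate libraries. Ctla2b moved from the 39.0 to 42.0 percentile to the 67.2 to 70.2 percentile. In the control cells, then, Ctla2a was an abundant transcript and Ctla2b lay below the middle of the genes tested. The rise rests on 290 to 334 reads of Ctla2b per control library and 761 to 850 per acetate library. For Ctla2a there were 1555 to 1650 and 2885 to 3477 reads.

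Of 2393 genes called higher with acetate, ordered by the ratio of mean FPKM, Ctla2b was 11 and Ctla2a was 20. The genes next to Ctla2b in that order were Gm23468, with a ratio of 2.95 between means of 1.51 and 0.512 FPKM, and Rec8, a meiotic cohesin subunit, with a ratio of 2.47. Those next to Ctla2a were Ccne2, which encodes cyclin E2, at 2.08 and Lsm7, of an RNA-binding ring, at 2.03. Control libraries were uneven for Lsm7, at 30.1 ± 13.8 FPKM, and for Gm23468, at 0.512 ± 0.444 FPKM (SD, n = 3). For the members, being called higher only restates how they were chosen and is not read as a test. These values only place the genes in the order that chose them.

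**Figure D2:**
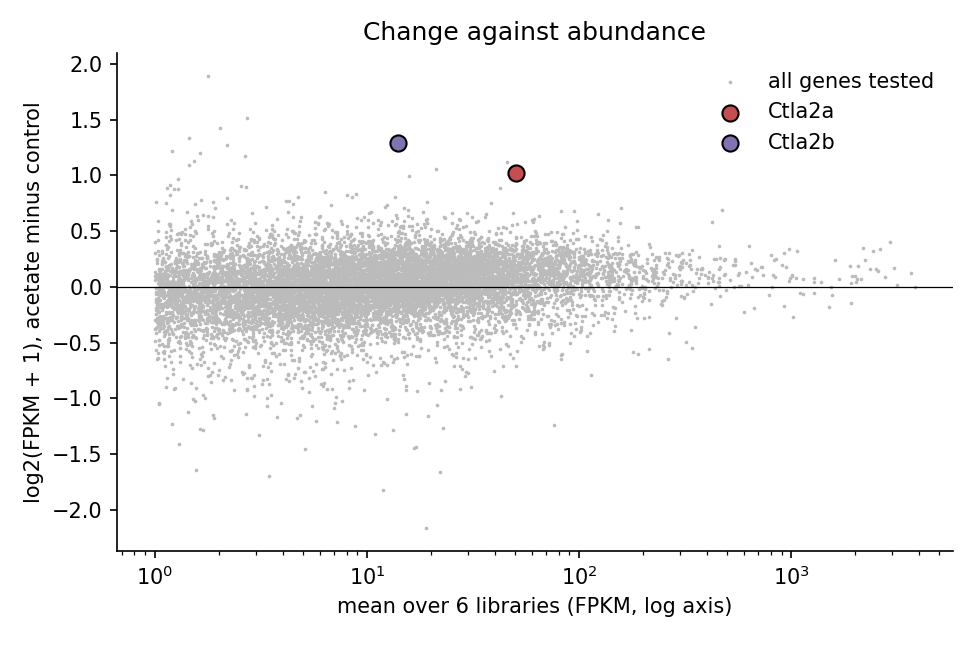
Difference in log2(FPKM + 1) between acetate and control for 10867 genes, against the mean over 6 libraries in FPKM on a log axis. Ctla2a and Ctla2b are marked, at ratios of mean FPKM of 2.06 and 2.64, near the upper edge of the cloud at their abundance.

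The balance between the genes also differed between groups. Ctla2b stood at 0.223, 0.242 and 0.230 of the Ctla2a level, per length, in control replicates 1 to 3. In acetate replicates 1 to 3 the fraction was 0.302, 0.274 and 0.316. The groups did not overlap, and the mean went from 0.232 ± 0.00978 to 0.298 ± 0.0211 (SD, n = 3 per group), or 1.28 times higher with acetate. Since both genes were chosen in this contrast, the shift is given without a test.

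The counting error of this balance was not small beside the shift. Of the reads of both genes, Ctla2b took 15.7%, 16.8% and 16.1% in the control and 20.2%, 18.6% and 20.9% in the acetate libraries. The 95% Wilson interval of the highest control share, in replicate 2, was 15.3% to 18.5%, and that of the lowest acetate share, in replicate 2, was 17.5% to 19.8%, so these intervals overlapped. The interval of control replicate 3, which reached 17.9%, also overlapped that of acetate replicate 2. The ends of a read pair appear to have been counted separately, so read numbers were also halved. The intervals of control and acetate replicate 2 were then 14.6% to 19.3% and 17.0% to 20.3%. Those of control replicates 1 and 3 then reached 18.2% and 18.6% and also overlapped that of acetate replicate 2. Those of acetate replicates 1 and 3 began at 18.5% and 19.0%, below the upper end in control replicate 2. The intervals cover counting error only.

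**Figure D3:**
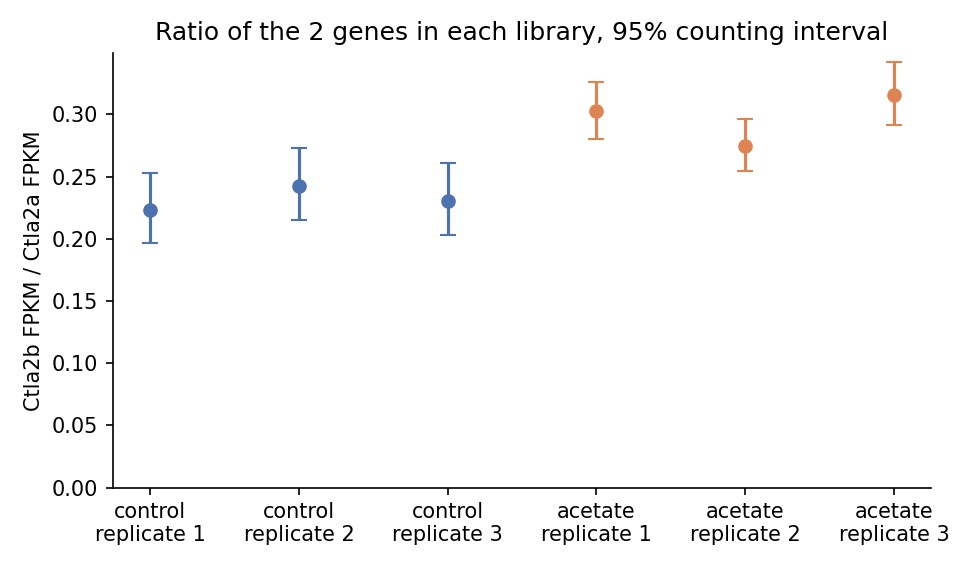
Ctla2b level as a fraction of the Ctla2a level (FPKM over FPKM) in each library. Points are the measured ratios and bars the 95% counting interval from the reads of both genes, with read numbers not halved. The 3 acetate points lie between 0.274 and 0.316, above the control points. The bar of acetate replicate 2 overlaps those of control replicates 2 and 3, and with read numbers halved more of the intervals overlap.

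Taking both genes as 1 sum depends less on the division of reads between them. The sum is not free of it, since the gene lengths used are 1373 and 1147 bases. Reads dropped or counted in both genes would also affect it. The summed level was 42.2, 41.2 and 38.6 FPKM in the control and 81.5, 93.1 and 90.3 FPKM in the acetate libraries. The ratio of the mean sums was 2.17, and the groups of sums did not overlap. The sum thus differed between groups by about as much as its larger member, Ctla2a.

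How far reads can be told apart was examined on the GENCODE M21 transcripts of mm10. Ctla2a-201, with 1373 bases, and Ctla2b-201, with 842 bases, aligned over 706 columns at 93.2% identity, and the longest identical run was 91 bases. Of windows of 50 bases, 7.10% in Ctla2a-201, 11.9% in Ctla2b-201 and 15.7% in Ctla2b-202 also occurred letter for letter in a transcript of the other gene. At 100 bases these shares were 0%, 0% and 2.81%, and at 150 bases all were 0%. Neither the read length nor the treatment of reads that fit several places is given in the sources used here, and aligners also accept mismatches. How the reads were divided between the genes was thus not tested.

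The same annotation holds 3 readthrough genes over the locus, Gm49391, Gm49392 and Gm49393, each with 0 rows in the deposited table. At 100 bases, 96.6% of windows of Ctla2b-202, 76.9% of Ctla2b-201 and 18.8% of Ctla2a-201 also occurred in transcripts of these genes. Reads from such a joined transcript cannot be told apart from Ctla2b reads over those windows.

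The deposited table places Ctla2b (MGP_C57BL6NJ_G0021037) on the minus strand of chromosome 13 from 62481033 to 62483117 and Ctla2a (MGP_C57BL6NJ_G0021039) from 62519826 to 62522296. These are positions of the C57BL/6NJ strain annotation and not of mm10. Both are protein-coding, and 36.7 kb separate them. Within 1 Mb of either gene the table held 24 other rows, of which 16 were protein-coding. Of these 24, 20 had 0 reads in all 6 libraries, and Gas1 and Ctsr had 21 and 2 reads in all. A count of 0 allows up to 3 reads in a library, by counting error alone.

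The silence covered most relatives of the cathepsin cluster. Both rows between the members, the placental gene Tpbpb and the small nuclear RNA gene Gm24594, were at 0 reads, as was Tpbpa on the other side of Ctla2a. Of 13 listed relatives in the locus, the placental cathepsins Ctsj, Ctsm, Ctsq, Cts3, Cts6, Cts7 and Cts8 with Ctsll3, BC051665, Tpbpa and Tpbpb made up the 11 with 0 reads. The members thus stood in a stretch where nearly all listed genes were not detected in either group. For comparison, 23090 of all 41095 genes were above 0 in any library.

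The 2 neighbours that could be tested were far lower than Ctla2a. Limma called 0 of them at the adjusted threshold. At an unadjusted p under 0.05 by limma there was 1 higher and 1 lower. The share of all genes at that unadjusted threshold is not given here, so nothing is read from this. The row next to Ctla2b, 4930486L24Rik, is annotated with a propeptide domain that the deposited descriptions also give to Ctla2a but not to Ctla2b. It stood at 2.39, 2.84 and 1.93 FPKM in control and 2.94, 3.13 and 3.02 FPKM in acetate replicates 1 to 3. Its 3 acetate values lay just above the control values, and its change of 0.26 on the log2(FPKM + 1) scale had an adjusted p of 0.0805 by limma. It was called higher without control replicate 2, at a change of 0.36 (limma adjusted p = 0.0277), and without control replicate 3 the change was 0.16 (limma adjusted p = 0.204). Dapk1, a kinase of cell death pathways, was at 1.87 ± 0.163 and 1.46 ± 0.16 FPKM (limma adjusted p = 0.0881). For comparison, 22% of all genes tested were called higher and 16.9% lower with acetate at the adjusted threshold.

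Beyond 1 Mb, the nearest tested genes, taken after their values were seen, also did not pass. Zcchc6, a terminal uridylyltransferase, lies 1.14 Mb away towards lower positions and was at 24.5 ± 0.957 and 21.8 ± 1.76 FPKM (limma adjusted p = 0.0657). On the other side, 1.64 Mb away, MGP_C57BL6NJ_G0021049 was at 2.08 ± 0.272 and 2.90 ± 0.74 FPKM (limma adjusted p = 0.12). On chromosome 13 as a whole, 102 of 389 tested genes rose and 54 fell, or 26.2% and 13.9%.

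**Figure D4:**
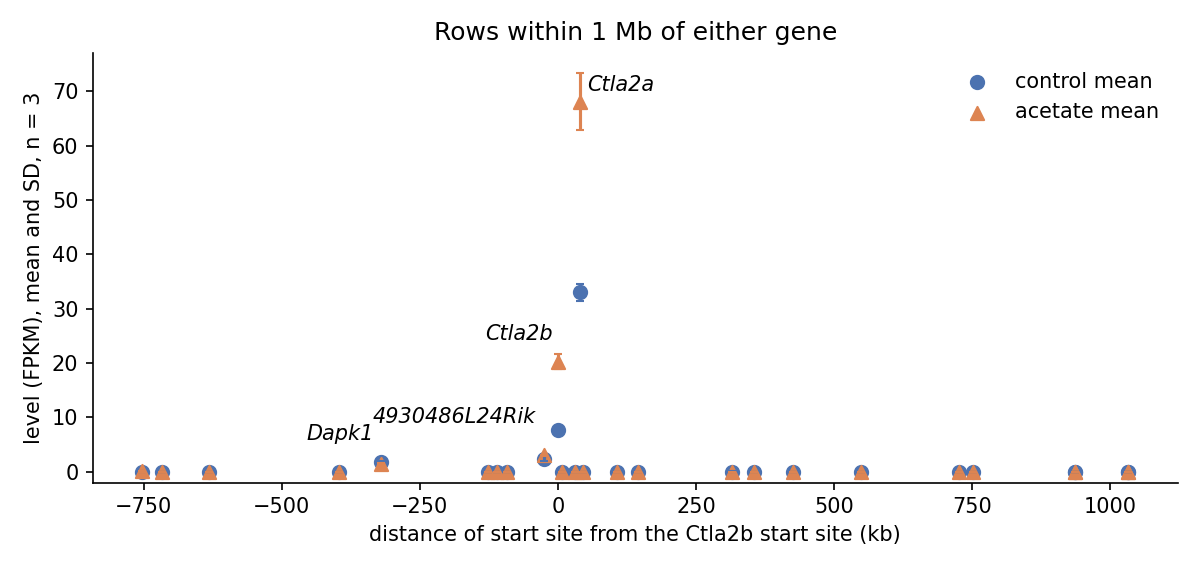
Mean level in FPKM with SD (n = 3) of all 26 rows within 1 Mb of Ctla2a or Ctla2b, against the distance of their start site from that of Ctla2b in kb. Circles are control and triangles acetate means; apart from the members, 4930486L24Rik and Dapk1, the rows lie at or near 0.

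Cathepsin L, the enzyme that CTLA-2 alpha is known to inhibit, had lower values with acetate without passing the test. Ctsl stood at 8.53, 9.19 and 8.83 FPKM in control replicates 1 to 3 and at 5.64, 7.56 and 7.89 FPKM in acetate replicates 1 to 3. The 3 acetate values lay below the control values, as they did for 23.1% of all genes tested, and acetate replicate 1 was the lowest. The change of -0.31 on the log2(FPKM + 1) scale had an adjusted p of 0.0543 by limma. The call was gained with values rescaled to TPM (limma adjusted p = 0.0169), with a filter at 5 FPKM (limma adjusted p = 0.0369), with the replicate block (limma adjusted p = 0.0387) and without acetate replicate 3 (limma adjusted p = 0.0339). Without acetate replicate 1 the change was smaller, at -0.18, with a limma adjusted p of 0.0395. The other alternatives did not give the call. These were quantile normalization, no filter, 0.1 in place of 1 added to FPKM, and leaving out acetate replicate 2 or any 1 control replicate. Their limma adjusted p ran from 0.0565 with 0.1 added to 0.161 with no filter. Set against its inhibitor, Ctla2a FPKM exceeded Ctsl FPKM in both groups.

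The other cysteine cathepsins divided. Of 6 tested, 2 rose and 2 fell, against 22% and 16.9% of all genes. Ctsw, a cathepsin found in killer cells, rose from 39.0 ± 2.99 to 57.6 ± 2.91 FPKM (limma adjusted p = 0.000726). Ctsb, a broadly expressed lysosomal cathepsin, rose from 51.3 ± 1.88 to 62.7 ± 2.11 FPKM. Ctso fell from 4.12 ± 0.115 to 3.26 ± 0.136 FPKM. Ctss, which degrades the invariant chain in antigen-presenting cells, fell from 99.6 ± 0.616 to 86.9 ± 5.59 FPKM, a call missed without control replicate 3 (limma adjusted p = 0.051). Ctsz, an exopeptidase, at 166.0 ± 3.72 and 158.8 ± 11.2 FPKM, did not pass (limma adjusted p = 0.369) but was called lower after TPM scaling (limma adjusted p = 0.0443) and quantile normalization (limma adjusted p = 0.0198). Ctsc, which activates granzymes, was at 15.5 ± 0.183 and 15.4 ± 0.548 FPKM (limma adjusted p = 0.851). The median log2 change of the 6 was -0.04, against 0.02 over all genes tested.

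Of 7 other lysosomal proteases tested, 1 rose and 1 fell, against 22% and 16.9% of all genes, at a median log2 change of 0.04. Ctsa, a serine carboxypeptidase, rose from 18.8 ± 1.04 to 23.8 ± 0.474 FPKM, while Scpep1, another serine carboxypeptidase, fell from 19.0 ± 1.29 to 10.6 ± 0.967 FPKM (limma adjusted p = 0.000375). The aspartic protease Ctsd, at 183.0 ± 5.57 and 187.7 ± 5.51 FPKM, and the tripeptidyl peptidase Tpp1, at 20.8 ± 0.629 and 21.5 ± 0.879 FPKM, did not pass.

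Other inhibitors divided. Of 3 cystatins tested, 1 rose and 1 fell, against 22% and 16.9% of all genes, at a median log2 change of -0.01. Cst3, the secreted cystatin C, fell from 130.7 ± 3.78 to 87.4 ± 6.38 FPKM (limma adjusted p = 0.000428). Cstb, the cytosolic stefin B, rose from 107.7 ± 1.39 to 134.2 ± 3.05 FPKM (limma adjusted p = 0.000646). Cst7, cystatin F of cytotoxic cells, was at 42.5 ± 0.725 and 42.1 ± 2.20 FPKM (limma adjusted p = 0.834). In control cells Cst3, Cstb and Cst7 were each more abundant per length than Ctla2a.

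Of 5 clade B serpins tested, 0 rose and 3 fell by limma, against 22% and 16.9% of all genes at the adjusted threshold. At an unadjusted p under 0.05 by limma also 0 rose, and the share of all genes at that threshold is not given here. The median log2 change of the 5 serpins was -0.17. Serpinb6b fell from 373.8 ± 14.3 to 264.5 ± 4.15 FPKM and Serpinb1b from 6.13 ± 0.299 to 3.32 ± 0.523 FPKM. Serpinb9, an inhibitor of granzyme B, fell from 193.6 ± 8.44 to 172.0 ± 0.0649 FPKM, a call missed without acetate replicate 2 (limma adjusted p = 0.054). Serpinb9b, at 14.4 ± 0.724 and 15.3 ± 1.40 FPKM, and Serpinb6a, at 4.62 ± 0.585 and 4.26 ± 0.106 FPKM, did not pass.

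**Figure D5:**
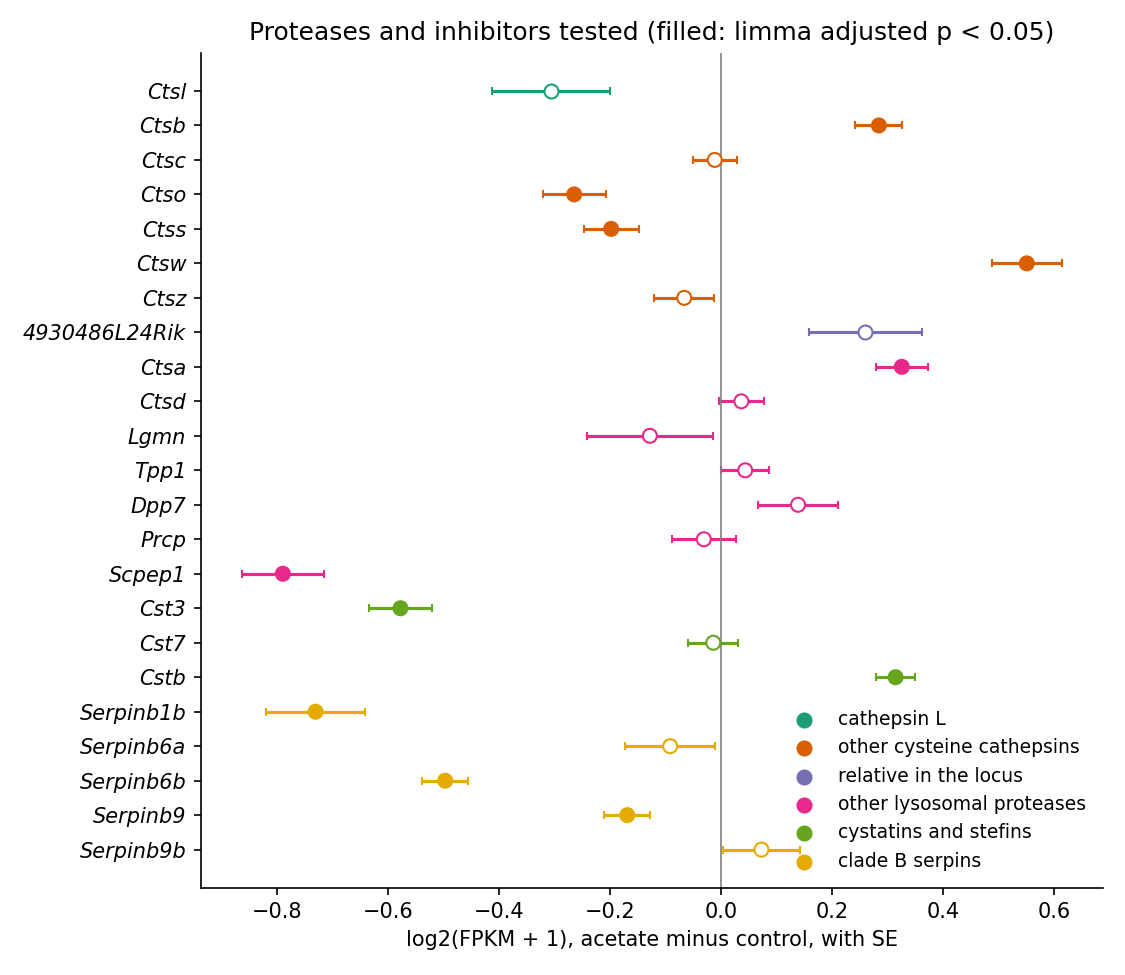
Difference in log2(FPKM + 1) between acetate and control, with SE, for the 23 tested proteases and inhibitors, coloured by list. Filled circles passed at an adjusted p below 0.05 by limma; cystatins and cathepsins lie on both sides of 0, and Cst3 and Cstb lie on opposite sides.

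The deposited descriptions give the propeptide inhibitor domain (I29) to 18 rows, Ctla2a among them and Ctla2b not, although the best protein match noted for both is CTLA-2 alpha. Of these 18 rows, 13 lie on chromosome 13, 10 had 0 reads in all 6 libraries and 5 reached the filter. Of all 41095 genes, 23090 were above 0 in any library and 10867 reached the filter. In control libraries Ctla2a was the third of these 5 by mean level, behind Ctss and Ctsw, and took 18.0% of the mean FPKM summed over all 18 rows. In acetate libraries it was the second, ahead of Ctsw, and took 30.5%. Ctss took 54.3% and 39.0% of that sum in control and acetate libraries, at mean levels of 99.6 and 86.9 FPKM. Ctla2a was chosen for its rise, which also raises the sum, so nothing is read from these shares and places.

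The other genes first named for cytotoxic T lymphocyte antigens divided. Gzma, which encodes granzyme A, was lower with acetate at 0.419 times the control mean. Ctla4, which encodes an inhibitory receptor, was at 0.721 times. Gzmb, which encodes granzyme B, rose by 1.25 times, a call missed with no filter (limma adjusted p = 0.16) and with quantile normalization (limma adjusted p = 0.0803). The 3 genes thus had 1 call higher and 2 lower, against 22% and 16.9% of all genes, at a median log2 change of -0.46.

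CTLA-2 alpha has been linked in the eye to TGF-beta and to regulatory T cells, so genes of that pathway were listed. Of 13 tested, 2 rose and 3 fell, against 22% and 16.9% of all genes, and 8 did not pass. Their median log2 change was -0.01. Smad7, an inhibitor of the pathway, fell from 6.70 ± 0.258 to 4.98 ± 0.11 FPKM. Tgif1, a corepressor, fell from 10.3 ± 0.0771 to 7.52 ± 0.436 FPKM, and Smurf1, a ubiquitin ligase, fell from 7.69 ± 0.231 to 6.44 ± 0.313 FPKM. Smad2, a signal transducer, rose from 31.6 ± 0.897 to 36.6 ± 1.60 FPKM, missed with TPM (limma adjusted p = 0.0574). The receptor gene Tgfbr1, named after its values were seen, was called higher at 3.05 ± 0.201 and 3.74 ± 0.224 FPKM, and the call was missed under 8 alternatives, the lowest and highest limma adjusted p among these being 0.0515 and 0.111. The ligand gene Tgfb1 was at 37.1 ± 1.16 and 38.4 ± 0.281 FPKM and Smad4 at 17.6 ± 0.187 and 16.7 ± 0.626 FPKM, without passing. Foxp3, the regulatory T cell factor, was below the filter at 0.095 ± 0.0395 and 0.126 ± 0.0331 FPKM.

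The genes whose profile over the 6 libraries was most like each member were found by the root mean square difference of log2(FPKM + 1) values centred on each gene's own mean. Nearest to Ctla2a were Gngt2, a G protein gamma subunit, at 0.0557, Pgp, a phosphoglycolate phosphatase, at 0.107 and Ung, the uracil-DNA glycosylase, at 0.116. Nearest to Ctla2b were Gngt2 at 0.134, Ccne2 at 0.188 and Gm25632 at 0.211. The members themselves differed by 0.152. Ctla2a was 2 in the order of likeness to Ctla2b among 10866 genes, and Ctla2b was 13 in the order of likeness to Ctla2a. Both members were chosen for their rise in these libraries, which enters the distance, so nothing is read from these places. Gngt2 had 14.5, 13.4 and 12.2 FPKM in control and 27.9, 29.3 and 29.3 FPKM in acetate libraries. Its groups did not overlap, as was so in this direction for 28.8% of all genes tested, and nothing is read from this for a gene found by its likeness to the members.

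The labelled cell type was checked on its markers. The 8 T cell genes, Cd8a and Cd3e among them, summed to 1428 to 1470 FPKM in control and 1502 to 1617 FPKM in acetate libraries. Of 44 listed genes of other cell types, 39 were in the table, 31 of them were below the filter and 9 had 0 reads. For comparison, 10867 of all 41095 genes reached the filter and 23090 were above 0 in any library. Mast cells and blood progenitors are cells in which Ctla2a is also known, and of 6 mast cell genes Ms4a2, Mcpt8, Tpsb2 and Mcpt4 were at 0 reads. Cpa3, a mast cell carboxypeptidase, had 30 reads in all, and Kit, the stem cell factor receptor, reached the filter at means of 6.13 FPKM in control and 6.07 FPKM in acetate libraries. The progenitor list summed to 113.9 to 127.2 FPKM in control and 187.5 to 200.7 FPKM in acetate libraries, which came from Ly6a, also known in activated T cells, at means of 119.4 and 195.7 FPKM. The defining progenitor genes Cd34, Meis1 and Gata2 averaged at most 0.0241 FPKM in either group. The dendritic cell list went from 2.32 to 2.39 FPKM in control to 1.14 to 1.47 FPKM in acetate libraries and the CD4 list from 21.2 to 22.4 FPKM to 16.2 to 17.2 FPKM, with Cd4 itself at means of 0.641 and 0.944 FPKM. In the CD4 list, Zbtb7b, a factor of the CD4 lineage, was lower, at means of 13.03 and 7.116 FPKM, and Cd40lg was at 8.28 and 8.78 FPKM. In the dendritic cell list Zbtb46 was at means of 2.157 and 1.181 FPKM. The endothelial list, of which Pecam1 alone reached the filter, stood at 4.76 to 5.25 FPKM in control and 3.74 to 3.90 FPKM in acetate libraries, and the platelet list at 0.679 to 0.909 and 0.497 to 0.667 FPKM. In the B cell list Cd79b alone reached the filter, at means of 17.1 FPKM in control and 17.2 FPKM in acetate libraries. Cd68 alone did so in the macrophage and monocyte list, at 9.64 and 10.5 FPKM. The summed levels of the B cell list, the macrophage and monocyte list and the remaining lists overlapped between groups. The part of all these lists in the members' rise was not tested. In bulk RNA, fewer cells of a type and less RNA per cell cannot be told apart. Libraries held 31098394 to 39140711 recovered reads, and none stood apart in the levels of the members.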

How the data were processed

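The deposited table holds FPKM values, made by the authors, for 41095 genes in 6 libraries. Adapters were trimmed with cutadapt 1.18 and reads aligned with HISAT2 2.1.0 to mm10, per the submitters' processing notes. The counting tool is not given in the sources used here, and 1 line held no values. FPKM times gene length gave whole reads for 100% of values within 0.01 reads. The library totals this implied exceeded the recovered reads in all control libraries, as with 3.29e+07 against 32195815 in replicate 1. They were below them in acetate replicates 2 and 3, as with 3.06e+07 against 31098394 in replicate 3, and nearly equal in acetate replicate 1. Of values of 1 to 40 reads, 64.2% to 65.7% were even, so read numbers overstate independent fragments. Strand handling is not given, so antisense reads could not be separated.

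Genes averaging 1 FPKM or more over the libraries (10867) were compared as log2(FPKM + 1) with limma 3.58.1 in R 4.3.3, with group as the only term, two-sided, Benjamini-Hochberg adjusted over all of them, at a threshold of 0.05. The log2 scale understates changes of low genes. Adjusted p values of list members come from this fit. Lists, neighbours within 1 Mb and named genes followed fixed rules: members, adjacent and tested neighbours, up to 4 called and 2 uncalled genes of a list, the 3 nearest profiles and the genes next in order of fold. Members and lists were chosen with earlier results of these data known. Start regions came from RefSeq and were compared with Biopython 1.88. Pairwise local alignment scored matches at 1 and mismatches at -1.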

Additional observations from a re-analysis of the deposited data

How the results depend on the processing

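The ratio of means ranged from 1.95 to 2.15 for Ctla2a and from 2.51 to 2.73 for Ctla2b over TPM scaling, quantile normalization and leaving out each library, and the fold of the Ctla2b to Ctla2a ratio ranged from 1.24 to 1.35. Leaving out 1 library gave 1.99 to 2.15 for Ctla2a, 2.55 to 2.73 for Ctla2b and 1.24 to 1.33 for the ratio. Genes called higher numbered 2393, and 1396 after TPM scaling, where 36.4% of calls were higher against 56.6% as deposited. Leaving out 1 library gave 1710 to 2290 higher and 1359 to 1697 lower. Neighbours called numbered 0, and 0 to 1 when 1 library was left out. Listed genes called numbered 19 of 39 tested, against 38.9% of all genes, and 17 to 20 over all alternatives. Libraries with the same number did not deviate together (correlations of -0.0537, 0.0258 and -0.0389). With 3 libraries per group this cannot show whether they share animals or dishes. With the replicate block, 2052 genes were higher and 1548 lower, 0 neighbours were called, Ctsl had a limma adjusted p of 0.0387 and Tgfbr1 one of 0.0515. Of 31 named genes with a fit, 18 kept call and direction under the alternatives that could be run. Uncalled genes near 0 changed sign, with log2 changes after TPM scaling and quantile normalization of -0.039 and -0.0474 for Ctsd, -0.0299 and -0.00201 for Tpp1 and -0.0242 and -0.0153 for Tgfb1. When 1 library was left out they ran from -0.0384 to 0.00583 for Ctsc and from -0.0526 to 0.0204 for Cst7. TPM scaling divides by the summed FPKM of a library, which was 352027 to 363385 in control and 365765 to 384438 in acetate libraries. The cause of the sign changes was not tested. With 290 reads in a control library, counting error limits the ratio of the genes more than the rise.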
